A study of Rattus norvegicus with 6 samples.

Results

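The syntaxin genes Stx1a, Stx2, Stx3, Stx4, Stx6, Stx7 and Stx12 were followed in rat cortical neurons exposed to the complement protein C1q. Probe sets were taken where the platform annotation named exactly 1 gene and that gene was among these 7. They were found for 6 of the 7 genes, out of 14506 genes with such a probe set, and no probe set was so annotated to Stx2, for which no value is given. Stx3 had been chosen because the study's paper lists it as responsive to C1q, and the others because they belong to the same family.

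Neurons came from the cortex of Sprague-Dawley rat embryos of day 18 and were grown for 3 days in NB-N2 medium. The C1q group was given 10 nM C1q for 3 h and comprised 3 arrays. The untreated group, the control, comprised 3 arrays of neurons that received no agent. The labels do not say whether the arrays of a group came from separate cultures or embryos, so the p-values reflect only how far these arrays scatter, and that scatter may be technical.

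C1q is the recognition molecule of the classical complement pathway and has also been studied for direct effects on neurons. Syntaxins are membrane-anchored SNARE proteins, the proteins that pull a vesicle and its target membrane together until they fuse. A syntaxin pairs with a SNAP-25 type protein, or with other Q-SNAREs, and with an R-SNARE such as a VAMP on the vesicle. SM proteins hold and guide the syntaxin, and the ATPase NSF takes the spent complex apart. Each family member serves its own membrane: syntaxins 1a, 2, 3 and 4 act at the plasma membrane, and syntaxins 6, 7 and 12 act at the trans-Golgi network and endosomes.

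Values are probe set intensities on a linear scale in arbitrary units, 1 per array, as deposited. Array medians lay between 147 and 155, and log2 values of any 2 arrays correlated at 0.991 to 0.996 across probe sets. Untreated array 1 lay above the average of the 6 arrays by a median of 0.06 log2 over the tested probe sets and untreated array 2 below it by a median of 0.03, the widest gap among the arrays. All 10 neuronal markers listed passed the filter on dim probe sets described below, among them Map2 at 5116 ± 207 in C1q-treated and 5271 ± 421 in untreated neurons and Dcx at 8672 ± 299 in C1q-treated and 8601 ± 336 in untreated neurons (SD, n = 3 each). Signal was not confined to neuronal genes. The filter passed 5 of 6 astrocyte markers (Gfap did not), 4 of 5 measured oligodendrocyte lineage markers, 3 of 6 mural and meningeal, 1 of 5 endothelial, 3 of 3 measured blood and 0 of 6 microglial markers. Slc1a3, the glial glutamate transporter, read 463 ± 25.5 in C1q-treated and 458 ± 42.3 in untreated neurons (SD, n = 3 each). Acta2, smooth muscle actin, read 6657 ± 113 in C1q-treated and 6837 ± 153 in untreated neurons (SD, n = 3 each). The rest of its mural and meningeal list was far dimmer. Pdgfrb read 132 ± 9.70 in C1q-treated and 139 ± 10.2 in untreated neurons (SD, n = 3 each). Col1a1 read 191 ± 17.9 in C1q-treated and 189 ± 19.3 in untreated neurons (SD, n = 3 each). Rgs5, Dcn and Lum did not pass the filter. Among all these markers only Hbb, a beta-globin gene, did not overlap between the groups, where 4.96% of all genes tested did not. It read 1155 ± 67.3 in C1q-treated and 970 ± 83.2 in untreated neurons (SD, n = 3 each), with an adjusted p of 0.9999 in limma. The part of non-neuronal cells in the syntaxin values was not tested.

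No syntaxin passed the test for a change after 3 h of C1q. Stx3 had an intensity of 131 ± 3.17 in C1q-treated and 142 ± 6.62 in untreated neurons (SD, n = 3 each), a fold change of 0.928. It was the only one of the 6 genes whose arrays did not overlap between the groups, where 4.96% of all genes tested did not overlap in either direction. Stx1a, Stx4, Stx6 and Stx7 had fold changes between 0.954 and 0.994, and Stx12 had one of 1.03. All 95% intervals included no change, and together they ran from 0.808 at the lowest bound to 1.13 at the highest. In bulk samples fewer cells of a type and less RNA per cell cannot be told apart.

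Fold changes are C1q over untreated on the scale of log2(intensity + 16), which understates the change of dim genes. The tests were made in limma across the 17529 probe sets that lay in the brightest 60%, above an intensity of 94.4, and all 7 syntaxin probe sets were among them. At an adjusted p under 0.05 (Benjamini-Hochberg over all 17529) 0 of the 6 genes was called, where 0% of all tested probe sets were. The adjusted p of each of the 6 in limma was 0.9999. At an unadjusted p under 0.05 in limma there were also 0 of 6, where 2.49% of tested probe sets and 0.684% of the genes tested passed. The smallest unadjusted p in the limma fit was 0.259 for Stx3 and the largest 0.859 for Stx6.

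**Figure D1:**
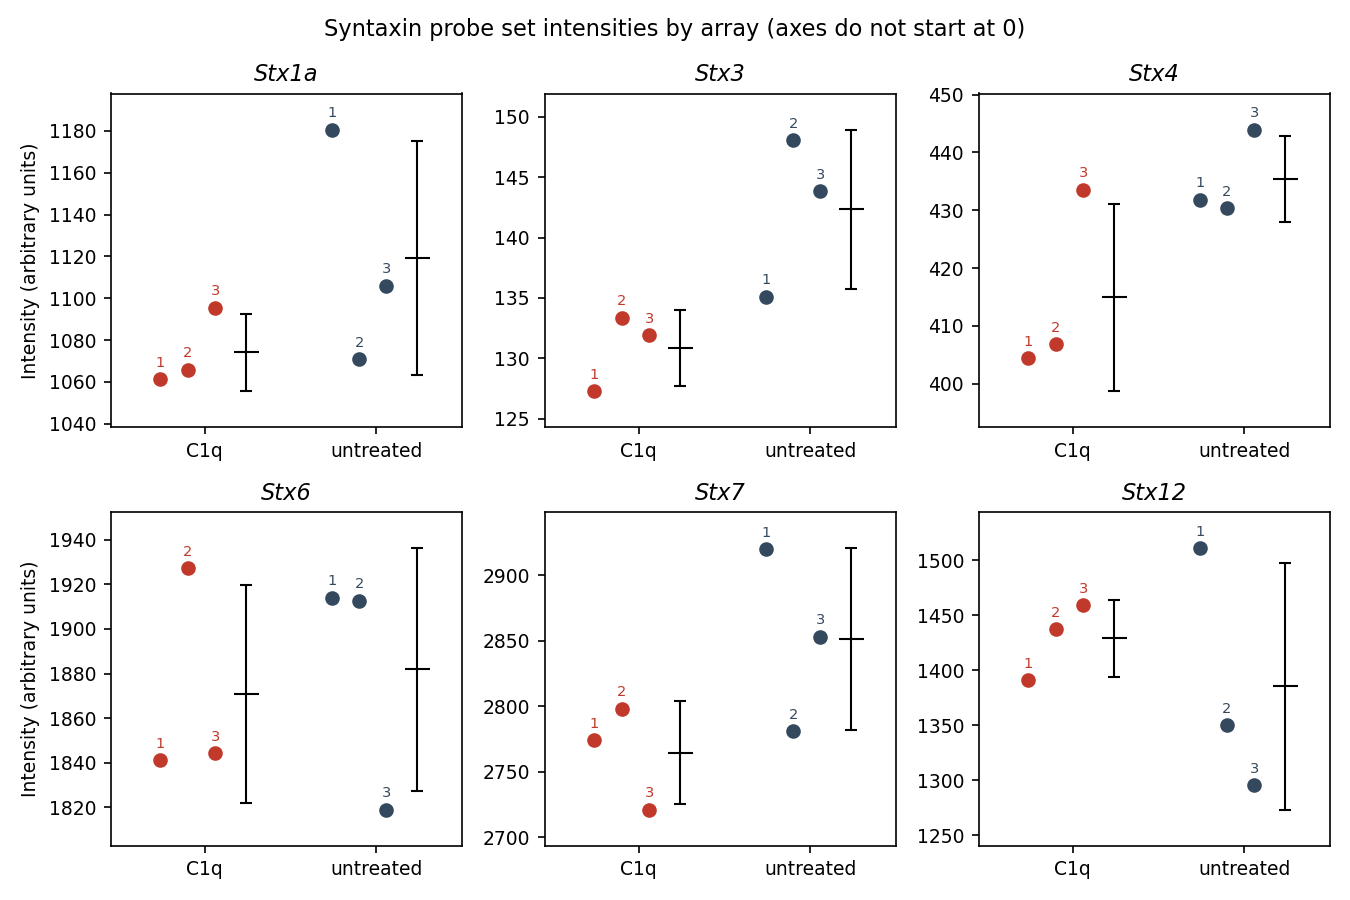
Intensity of each syntaxin probe set on each array in arbitrary units, with C1q-treated arrays on the left and untreated arrays on the right of each panel. Points are single arrays with their label number, and the black marks beside them are the mean and SD of 3 arrays. Stx3 is the panel in which all 3 C1q points lie below all 3 untreated points. The axes do not start at 0.

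Stx1a encodes the syntaxin of the presynaptic plasma membrane, where it forms the core complex of transmitter release with Snap25 and Vamp2. It read 1061, 1066 and 1095 on C1q arrays 1 to 3, against 1181, 1071 and 1106 on untreated arrays 1 to 3. Untreated array 1 was the highest of the 6, and C1q array 3 lay above untreated array 2, so that the groups overlapped. The means were 1074 ± 18.5 in C1q-treated and 1119 ± 56.0 in untreated neurons (SD, n = 3 each), and the fold change was 0.961 (95% interval 0.888 to 1.04). Without untreated array 1 the log2 fold change was -0.02, against -0.06 with all arrays. A second Stx1a probe set carried the same values on all 6 arrays to the last digit, as 319 probe sets of the table did with at least 1 other, and the pair was counted once.

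Stx3 encodes a plasma membrane syntaxin that works in apical transport of epithelial cells, at ribbon synapses and, in neurons, in neurite outgrowth and dendritic exocytosis. It read 127, 133 and 132 on C1q arrays 1 to 3, against 135, 148 and 144 on untreated arrays 1 to 3. The highest C1q array, the second, lay just under the lowest untreated array, the first. The 95% interval of the fold change was 0.808 to 1.07, and the SD was 2.43% of the mean in C1q-treated and 4.65% in untreated neurons. An exact permutation test over the 6 arrays gave p = 0.1 (two-sided), the smallest that 3 against 3 allows. Groups that do not overlap always give this value, so it adds nothing to the lack of overlap. The same permutation test gave p = 0.2 for Stx1a and Stx7, 0.3 for Stx4, 0.6 for Stx12 and more for Stx6.

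The groups did not overlap, with C1q lower, for 1 of the 6 syntaxins, Stx3, and for 4.42% of all tested probe sets. The log2 fold change of Stx3, -0.11, stood at rank 1718 from the lowest of 17529, at the 9.80th percentile, and its unadjusted p at rank 3088. With quantile normalization the arrays still did not overlap, at 129 to 136 in C1q-treated and 137 to 144 in untreated neurons. With median centring they did, since C1q array 2 read 136.1 and untreated array 1 read 135.5. This centring used medians over all probe sets, of which that of untreated array 2 was the highest, at 155. Over the tested probe sets alone, untreated array 2 lay below the average of the arrays by a median of 0.03 log2. Of the 6, the Stx3 probe set lay nearest to the filter intensity of 94.4, and its share of background is unknown, so that the interval may not bound the change of its mRNA.

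Stx4 encodes a broadly expressed plasma membrane syntaxin, known for glucose transporter delivery in fat and muscle and for exocytosis in dendrites. It read 404, 407 and 434 on C1q arrays 1 to 3, against 432, 430.4 and 444 on untreated arrays 1 to 3. C1q arrays 1 and 2 were below all untreated arrays, and C1q array 3 was above untreated arrays 1 and 2. The means were 415 ± 16.2 in C1q-treated and 435 ± 7.45 in untreated neurons (SD, n = 3 each), with a fold change of 0.954 (95% interval 0.867 to 1.05). It was the only gene of the 6 whose relative spread was wider among the C1q arrays, at 3.90% of the mean against 1.71% in untreated neurons.

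Stx6 encodes a syntaxin of the trans-Golgi network and early endosomes that takes part in retrograde transport. It read 1841, 1927 and 1844 on C1q arrays 1 to 3, against 1914, 1913 and 1819 on untreated arrays 1 to 3. The highest value came from C1q array 2 and the lowest from untreated array 3, so that both groups spanned nearly the same range. Its means of 1871 ± 48.8 in C1q-treated and 1882 ± 54.4 in untreated neurons (SD, n = 3 each) gave a fold change of 0.994 (95% interval 0.928 to 1.07). Stx6 had no settled direction, as its log2 fold change of -0.01 became 0.01 after quantile normalization and 0.02 after median centring.

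Stx7 encodes a syntaxin of late endosomes that serves fusion with lysosomes. It read 2774, 2798 and 2721 on C1q arrays 1 to 3, against 2919.6, 2781 and 2853 on untreated arrays 1 to 3. C1q array 2 lay above untreated array 2, and the other C1q arrays lay below every untreated one. The means were 2765 ± 39.4 in C1q-treated and 2851 ± 69.4 in untreated neurons (SD, n = 3 each), with a fold change of 0.970 (95% interval 0.910 to 1.03). This was the narrowest interval of the 6 genes on the log2 scale. The log2 fold change of -0.04 was -0.02 with either rescaling, quantile normalization or median centring.

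Stx12 encodes a syntaxin of recycling endosomes. It read 1391, 1437 and 1459 on C1q arrays 1 to 3, against 1511, 1349.9 and 1295 on untreated arrays 1 to 3. The untreated arrays held both the highest and the lowest value, and the C1q arrays lay between them. The means were 1429 ± 34.9 in C1q-treated and 1385 ± 112 in untreated neurons (SD, n = 3 each), a fold change of 1.03 (95% interval 0.944 to 1.13). The SD was 8.10% of the mean in untreated neurons, the widest relative spread of the 6 genes in either group, against 2.44% in C1q-treated neurons. The untreated arrays decided the value: the log2 fold change was 0.05 with all arrays, 0.11 without untreated array 1 and 0.00052 without untreated array 3.

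Of the 6 syntaxins, 5 had a lower mean after C1q and 1 a higher one, where 63.3% of all tested probe sets had a lower mean. With quantile normalization or median centring the split was 4 lower and 2 higher, as Stx6 turned, and the share of lower means over all tested probe sets was then 49.2% (quantile) and 44.6% (median). The median log2 fold change of the 6 was -0.05, beside -0.02 over all tested probe sets. The relative spread between arrays was wider in untreated neurons for 5 of the 6. In the values as deposited, C1q array 1 was the lowest array for Stx1a, Stx3 and Stx4, and untreated array 1 was the highest for Stx1a, Stx7 and Stx12. These places depended on the scaling. With quantile normalization C1q array 2 was the lowest for Stx1a and Stx4, and untreated array 1 was not the highest for Stx7 or Stx12.

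**Figure D2:**
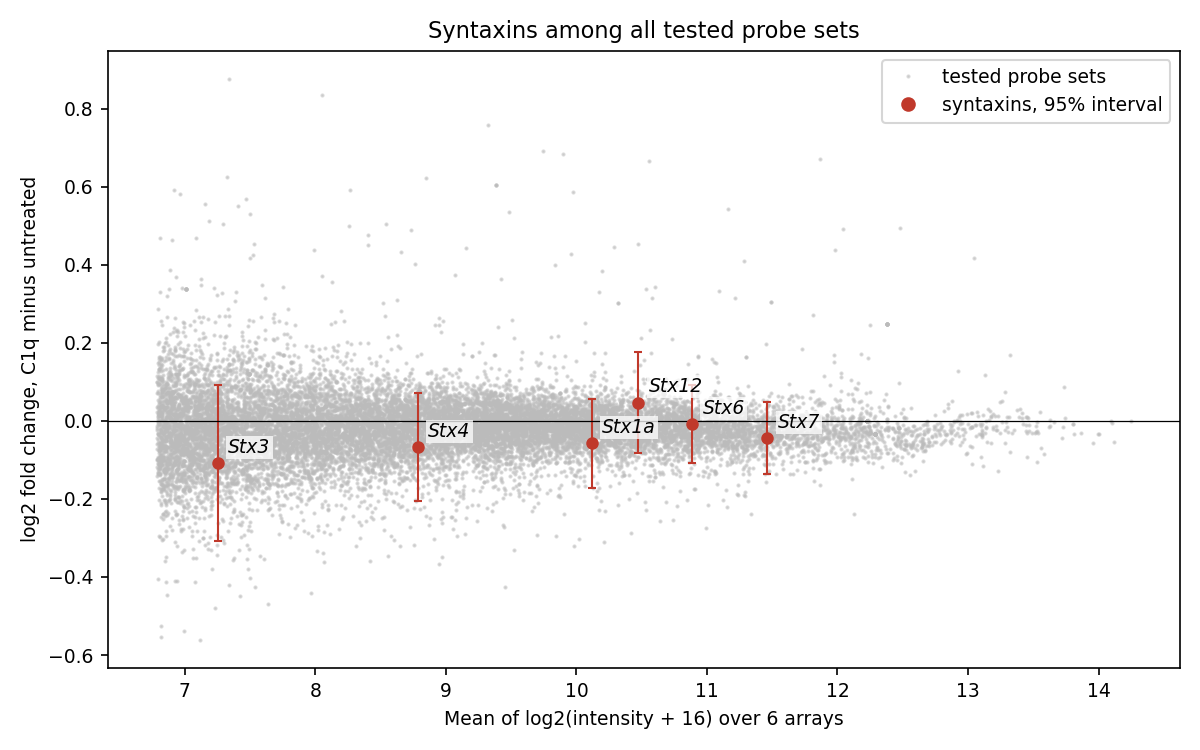
The log2 fold change (C1q minus untreated) against the mean of log2(intensity + 16) over 6 arrays, for all 17529 tested probe sets in grey and the 6 syntaxins in red with 95% intervals. The syntaxins lie between -0.11 and 0.05 inside the grey cloud, and every interval crosses 0.

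The partners of the syntaxins were read from a list of 64 SNARE and SNARE-regulating genes, of which 54 had a single-gene probe set and 45 passed the filter. Limma called 0 of the 45 at an adjusted p under 0.05, where 0% of the 9652 genes tested were called, and 0 had an unadjusted p under 0.05, where 0.684% of genes did. Their means were higher after C1q for 22 and lower for 23, beside 37.0% of all genes with a higher mean. This split was not stable. It was 29 to 16 under quantile normalization and 32 to 13 under median centring, where 53.1% and 59.0% of all genes had a higher mean. Leaving out a single array moved it both ways, and the share of all genes with a higher mean moved too. The split was 34 to 11 without untreated array 1 (55.3% of all genes higher) and 13 to 32 without untreated array 2 (27.9%). It was 10 to 35 without C1q array 2 (30.6%) and 29 to 16 without C1q array 3 (46.0%). The list's median log2 fold change of -0.0025, beside -0.02 over all genes tested, turned to 0.02 with either rescaling and ran from -0.02 to 0.03 with 1 array left out. Groups did not overlap for 2 of the 45, Bet1 with C1q lower and Napg with C1q higher, where 4.96% of genes did not overlap. Higher and lower means are also counted by role below. Those counts are parts of the same unstable split and stand beside the same 37.0% of all genes with a higher mean.

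Among the other syntaxins tested, Stx5, Stx8, Stx16, Stx17 and Stx18, 0 of 5 passed, with 4 means higher and 1 lower. Stx8, an endosomal syntaxin, read 784 ± 30.9 in C1q-treated and 756 ± 32.2 in untreated neurons (SD, n = 3 each), a fold change of 1.04. Its 3 probe sets did not share a sign, with log2 fold changes of 0.05, 0.05 and -0.03, and RefSeq lists 2 pseudogenes of Stx8, whose part in these values was not tested. Stx18, a syntaxin of the endoplasmic reticulum, read 227 ± 27.3 in C1q-treated and 243 ± 32.2 in untreated neurons (SD, n = 3 each), with a wide 95% interval of 0.792 to 1.11. Stx11 and Stx19 were too dim for the filter and have no test.

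The SNAP-25 type proteins, which supply helices to the complex beside the syntaxin, had 0 of 4 genes passing, with 2 means higher and 2 lower. Snap25, the neuronal form, read 2739 ± 59.7 in C1q-treated and 2811 ± 147 in untreated neurons (SD, n = 3 each), a fold change of 0.975 (95% interval 0.907 to 1.05). Snap23, the form found in most cells, had a fold change of 1.03. Of 8 tested R-SNAREs 0 passed, with 2 means higher and 6 lower. Vamp2, the synaptic vesicle form, read 1823 ± 30.0 in C1q-treated and 1818 ± 75.6 in untreated neurons (SD, n = 3 each), with a fold change of 1.00 (95% interval 0.935 to 1.08). Fold changes were 0.954 for Ykt6 and 1.04 for Sec22a, R-SNAREs of the secretory pathway, both with intervals that included no change.

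Of the 7 tested genes listed as Golgi and endosome Q-SNAREs 0 passed, with 4 means higher and 3 lower. Gosr2, a Golgi SNARE, read 651 ± 10.2 in C1q-treated and 618 ± 28.2 in untreated neurons (SD, n = 3 each). Bet1, which acts between endoplasmic reticulum and Golgi, read 359.1, 355.4 and 339.5 on C1q arrays 1 to 3, against 368.9, 360.5 and 391.8 on untreated arrays 1 to 3. The highest C1q value lay just under the lowest untreated one, and the fold change was 0.943 (95% interval 0.851 to 1.04).

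Of 7 SM protein genes tested 0 passed, with 3 means higher and 4 lower. Stxbp2, an SM protein that binds Stx3 in epithelial and blood cells, read 143 ± 1.99 in C1q-treated and 135 ± 9.19 in untreated neurons (SD, n = 3 each), a fold change of 1.05 (95% interval 0.912 to 1.21). Vps33a, an SM protein of late endosomes, had a fold change of 0.978.

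Among 11 tested genes listed as other syntaxin-binding proteins and regulators 0 passed, with 6 means higher and 5 lower. Cadps, which primes dense-core vesicles, read 1655 ± 39.4 in C1q-treated and 1578 ± 62.5 in untreated neurons (SD, n = 3 each), and its unadjusted p of 0.174 in limma was the smallest of the whole list. Doc2a, a calcium sensor gene, had the highest fold change of the list at 1.06, with a 95% interval of 0.911 to 1.23. Syt1, the calcium sensor of fast release, had a fold change of 0.987, and the complexin genes Cplx1 and Cplx2 had 1.02 and 0.977. Of the 3 disassembly genes tested 0 passed. Nsf read 1226 ± 30.2 in C1q-treated and 1261 ± 91.7 in untreated neurons (SD, n = 3 each). Napg, which encodes an adaptor of NSF, read 322 ± 5.10 in C1q-treated and 310 ± 2.72 in untreated neurons (SD, n = 3 each), a fold change of 1.04 (95% interval 0.936 to 1.15). The reference gene Actb had a fold change of 1.00.

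**Figure D3:**
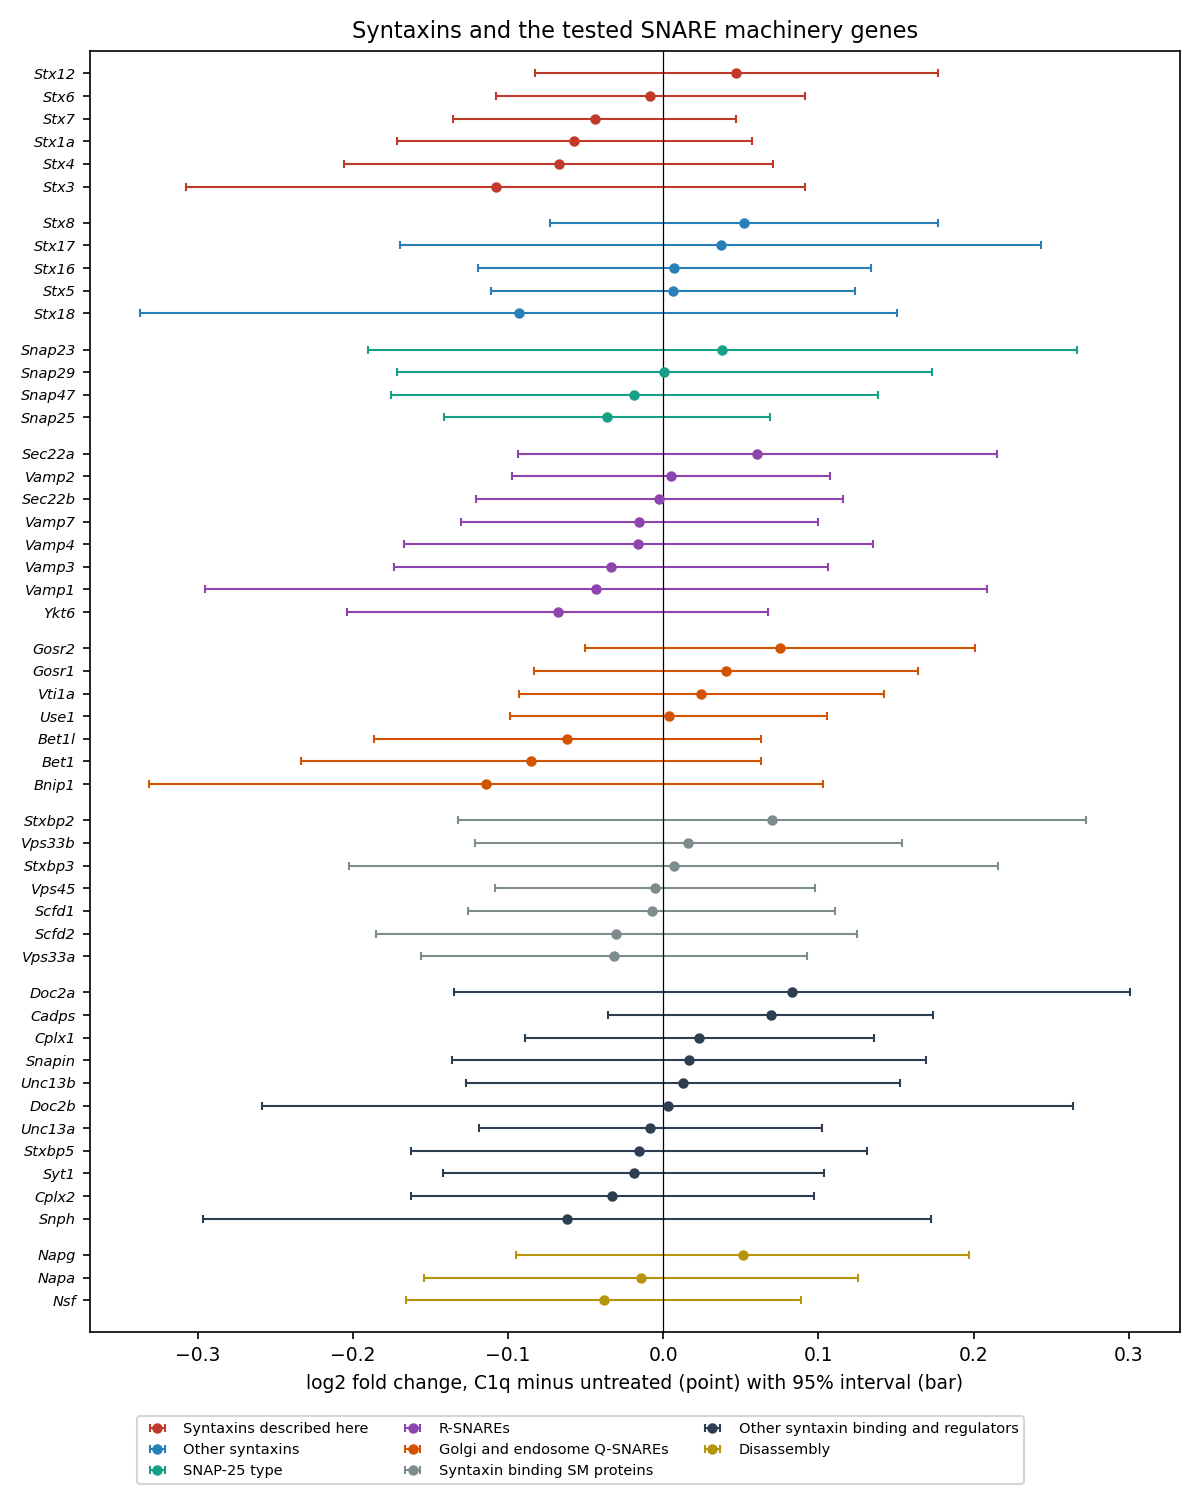
The log2 fold change (C1q minus untreated) of the 6 syntaxins in red at the top and of the 45 tested partner genes below, grouped by role, with points for the estimate and bars for the 95% interval of the limma fit. All estimates lie between -0.11 and 0.08, and every bar crosses 0.

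Across the 6 arrays, the 3 genes most like Stx3 were Haus7, Ebi3 and Creb3l1, with Pearson r of 0.985, 0.978 and 0.975 between log2 values, among 9651 other genes. The r of these genes depended on the scaling, and with quantile normalization it was 0.503 for Haus7, 0.843 for Ebi3 and 0.922 for Creb3l1. Of the 9651 genes, 29 (0.300%) had an r above 0.9 with Stx3. With Stx1a 129 genes (1.34%) had one. The 3 most like Stx1a were Gpr108, Oxsr1 and Ube2s, at 0.992, 0.985 and 0.984. These values share the same 6 arrays and their scaling, and they describe those arrays alone. Haus7 read 383 ± 2.40 in C1q-treated and 396 ± 6.32 in untreated neurons (SD, n = 3 each). Ebi3 read 225 ± 11.8 in C1q-treated and 248 ± 17.97 in untreated neurons (SD, n = 3 each), with overlapping groups. Creb3l1 read 111 ± 5.81 in C1q-treated and 135 ± 12.7 in untreated neurons (SD, n = 3 each). Gpr108, Oxsr1 and Ube2s were highest on untreated array 1, as Stx1a was.

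**Figure D4:**
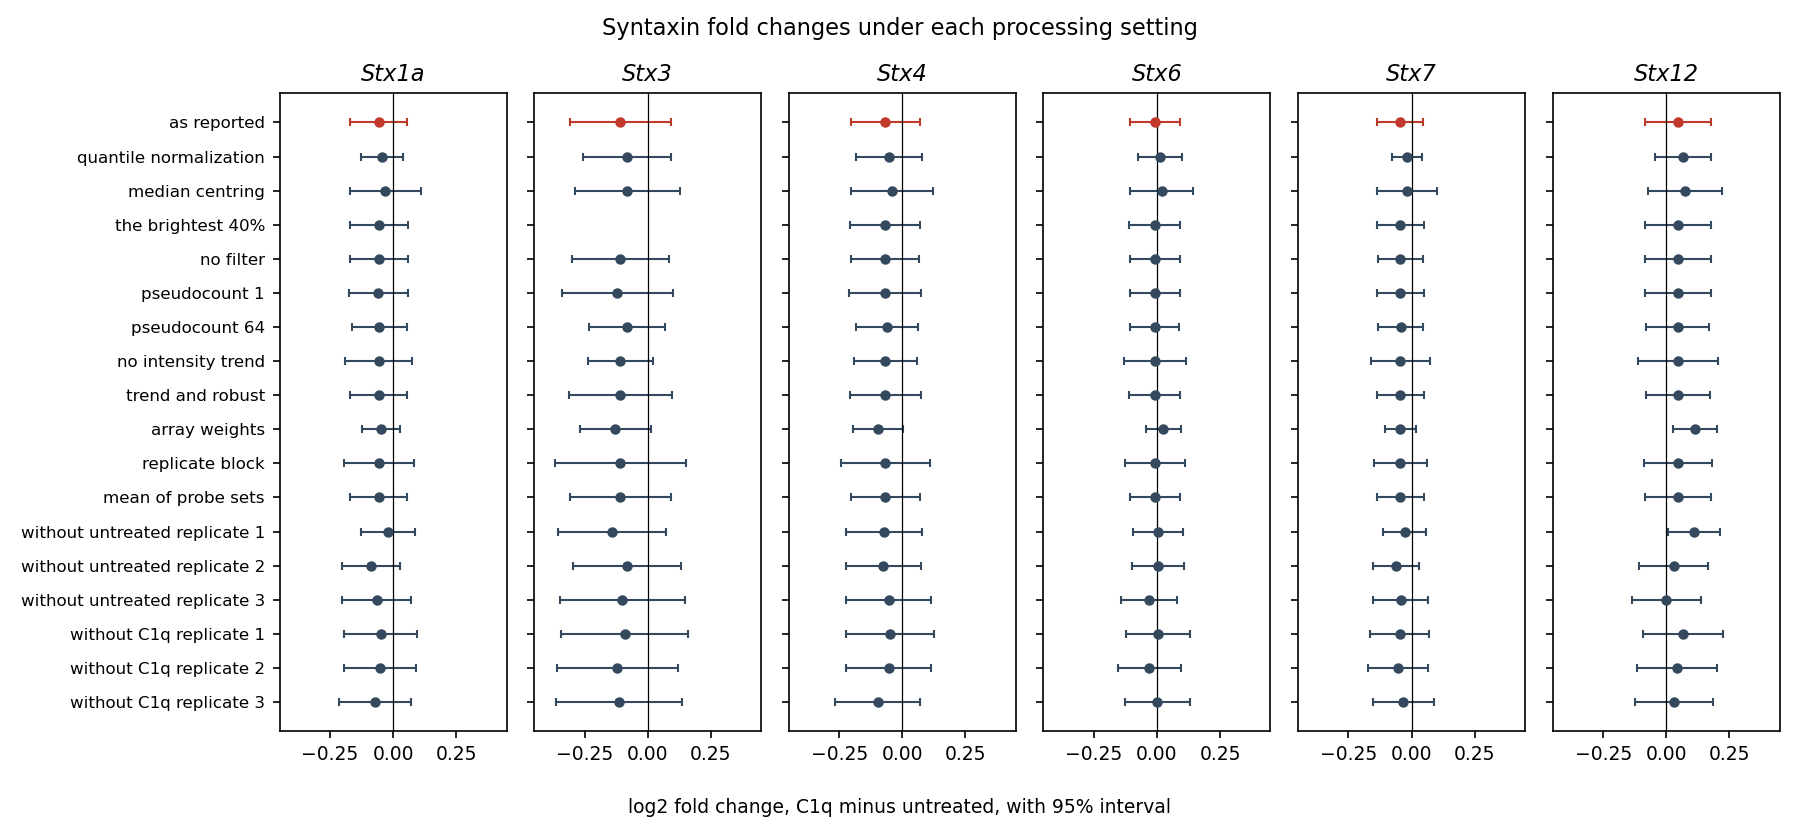
The log2 fold change (C1q minus untreated) of each syntaxin, with its 95% interval, as reported (red) and under each alternative setting (dark). Stx3 lies left of 0 in all 16 alternatives that tested it, Stx6 crosses 0, and the Stx12 interval clears 0 with array weights and without untreated array 1. Filters, variance models, the replicate block and averaging of probe sets can move only the intervals here, not the points. Stx3 has no point among the brightest 40%, which left it out.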

How the data were processed

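Total RNA was labelled as biotinylated cRNA for Affymetrix arrays, per the labels' protocols. The authors deposited 1 linear intensity per probe set and array for 29215 probe sets, while how these were summarised and normalized is not given in the labels. Genes were assigned by the platform annotation, and a lookup of their identifiers in RefSeq's GRCr8 gene table altered 0 symbols. The annotation gave 1 gene for 15310 probe sets, several for 323 and none for 13582. A gene with several probe sets was represented by the brightest. Values were used as log2(intensity + 16) with no rescaling, since array medians differed by 0.070 on that scale, under a limit of 0.1. The brightest 60% were tested in limma 3.58.1 (R 4.3.3) by lmFit and a trended eBayes, with Benjamini-Hochberg adjustment over 17529 probe sets. The fit was tested on simulated data. Precision is limited by the 6 arrays.

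The members and lists were chosen with earlier results of these data known. Named partner genes were up to 2 per role by smallest unadjusted p, genes picked by name, the 3 genes of highest r with Stx3 and with Stx1a, and Bet1, Napg, Stx8 probe sets and marker genes where a result turned on them. Alternatives were 17, all set down with the design: scaling, filter, pseudocount, variance model, array weights, replicate block, averaging the probe sets of a gene, and leaving out each array.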

Additional observations from a re-analysis of the deposited data

How the results depend on the processing

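No syntaxin and no gene of the SNARE list was called under any of the 17 alternatives. Of 101 syntaxin fold changes under them, 94 kept their sign and 7 turned, all of Stx6. The filters, the variance models, the replicate block and the averaging of probe sets left the syntaxin fold changes as they were. Those settings could not turn a sign, so the count of 94 overstates how far the signs were tried. The log2 fold change of Stx6 was 0.012 with quantile normalization, 0.018 with median centring, 0.026 with array weights and -0.032 to 0.0040 with 1 array left out. Leaving out each array gave -0.14 to -0.08 for Stx3, -0.09 to -0.02 for Stx1a, -0.10 to -0.05 for Stx4, -0.06 to -0.03 for Stx7 and 0.00052 to 0.11 for Stx12. The smallest adjusted p values in limma came from array weights, at 0.131 for Stx12, 0.247 for Stx4 and 0.284 for Stx3. That fit rested on untreated array 3 with a weight of 5.51, against 0.362 and 0.335 for untreated arrays 1 and 2. Over the alternatives the adjusted p reached 1.00 for each of these genes. Over all tested probe sets, array weights called 130 higher and 317 lower, the replicate block 9 higher and 0 lower, no filter 1 lower and 0 higher, and leaving out each array 0 to 28 higher and 0 to 10 lower, with every such call made without untreated array 2. The labels do not say that a replicate number marks a shared culture, so the number was not taken as a pairing. Same-numbered arrays did not deviate together, with correlations of 0.014, -0.453 and -0.134. Between differently numbered arrays the correlations ran from -0.371 (untreated array 1 with C1q array 3) to 0.452 (untreated array 2 with C1q array 3). With the block the log2 fold change of Stx3 stayed at -0.11 with an unadjusted p of 0.401 in limma. With quantile normalization the r with Stx3 was 0.503 for Haus7, 0.843 for Ebi3 and 0.922 for Creb3l1, and the r with Stx1a was 0.848 for Gpr108, 0.979 for Oxsr1 and 0.876 for Ube2s. The cause of these shifts was not tested. Signal over background is unknown, which limits dim probe sets such as that of Stx3.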
